A study of Mus musculus with 3 samples.

Results

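Nuclear receptors other than the steroid receptors were examined in the mouse genital tubercle, from which the external genitalia form. The members were 36 named genes of the orphan, thyroid hormone, vitamin D, peroxisome proliferator-activated and retinoid X receptors. Every probe set that the platform annotation gives to exactly 1 of these symbols was taken, which yielded 90 probe sets of 34 genes among 45037 probe sets and 18193 genes. Nr1h2 and Nr2e3 had no such probe set and were not analysed here, and 1 probe set given to Ppard together with another gene was left out. Each of 3 embryos labelled male (embryonic day 14, Theiler stage 22) gave RNA for 1 array, with no pooling. All carried the same labels for transgene (SMAA/EYFP transgenic) and strain (FVB/N), with FVB/N mothers and transgenic fathers. The tubercle was dissected by the fluorescence of that reporter, which is named for smooth muscle actin (Acta2), and total RNA went through 2 rounds of amplification. The samples form 1 group with no treated or control arm, and they differ in 1 label, the landmark of digit development. Replicate 3 has visible fingers, while replicates 1 and 2 have indented footplate borders.

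Nuclear receptors are transcription factors that bind short DNA hexamers, most often variants of AGGTCA, and many of them change activity when a small lipophilic ligand binds. Thyroid hormone, vitamin D, peroxisome proliferator-activated and liver X receptors work as dimers with a retinoid X receptor. Orphan receptors were named before a ligand was known, and several act without one. In the tubercle, steroid receptors are known for sexual differentiation, whereas the receptors described here are better known from liver, fat, the clock and neural tissue.

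The samples differed in ways that bear on the results. Xist, the RNA of the inactive X chromosome in female cells, read 61883 in replicate 3, against 8.05 and 118 in replicates 1 and 2, and the Y-linked gene Eif2s3y read 37.9, against 4384 and 3738. These values go against the male label of replicate 3, so the main counts of receptors and of listed genes are also given without it. Summed signals of 9 liver genes were 115311, 52959 and 9353 in replicates 1, 2 and 3, those of 7 erythroid genes 32295, 11016 and 4055, and those of 9 skeletal muscle genes 24412, 7569.5 and 3323. Markers of the labelled tissue were present, since 6 of 7 tubercle genes and 8 of 8 mesenchyme genes were above background in every sample. Of 7 smooth muscle genes, 3 were above background in every sample, and Acta2 itself read 5273, 2736 and 2378. Background was taken from 83 probe sets of olfactory, vomeronasal and taste receptors. Their 95th percentile was 134.8, 251.3 and 197 signal units in replicates 1, 2 and 3.

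Of the 34 receptor genes, 16 were above background in 3 of 3 samples, where each gene is read by the probe set of highest mean (called its main probe set below). Over all genes measured the share was 60.6%. A further 4 receptor genes were above background in 2 samples, 6 in 1 sample and 8 in none, against 5.57%, 7.22% and 26.6% of all genes. In replicates 1 and 2, without replicate 3 and its doubtful sex label, 17 of 34 were above background in both, against 62.3% of all genes. Sample by sample, 21 receptor genes were above background in replicate 1, 18 in replicate 2 and 23 in replicate 3, against 70.2%, 63.9% and 65.9% of all genes. By probe set, 32 of 90 were above background in 3 of 3 samples, against 48.1% of all probe sets. Signals below are deposited values, as mean ± SD with n = 3 where a mean is given. The brightness of different probe sets cannot be compared, so no order of abundance among receptors is given. In a whole tissue, fewer expressing cells and less RNA per cell cannot be told apart.

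**Figure D1:**
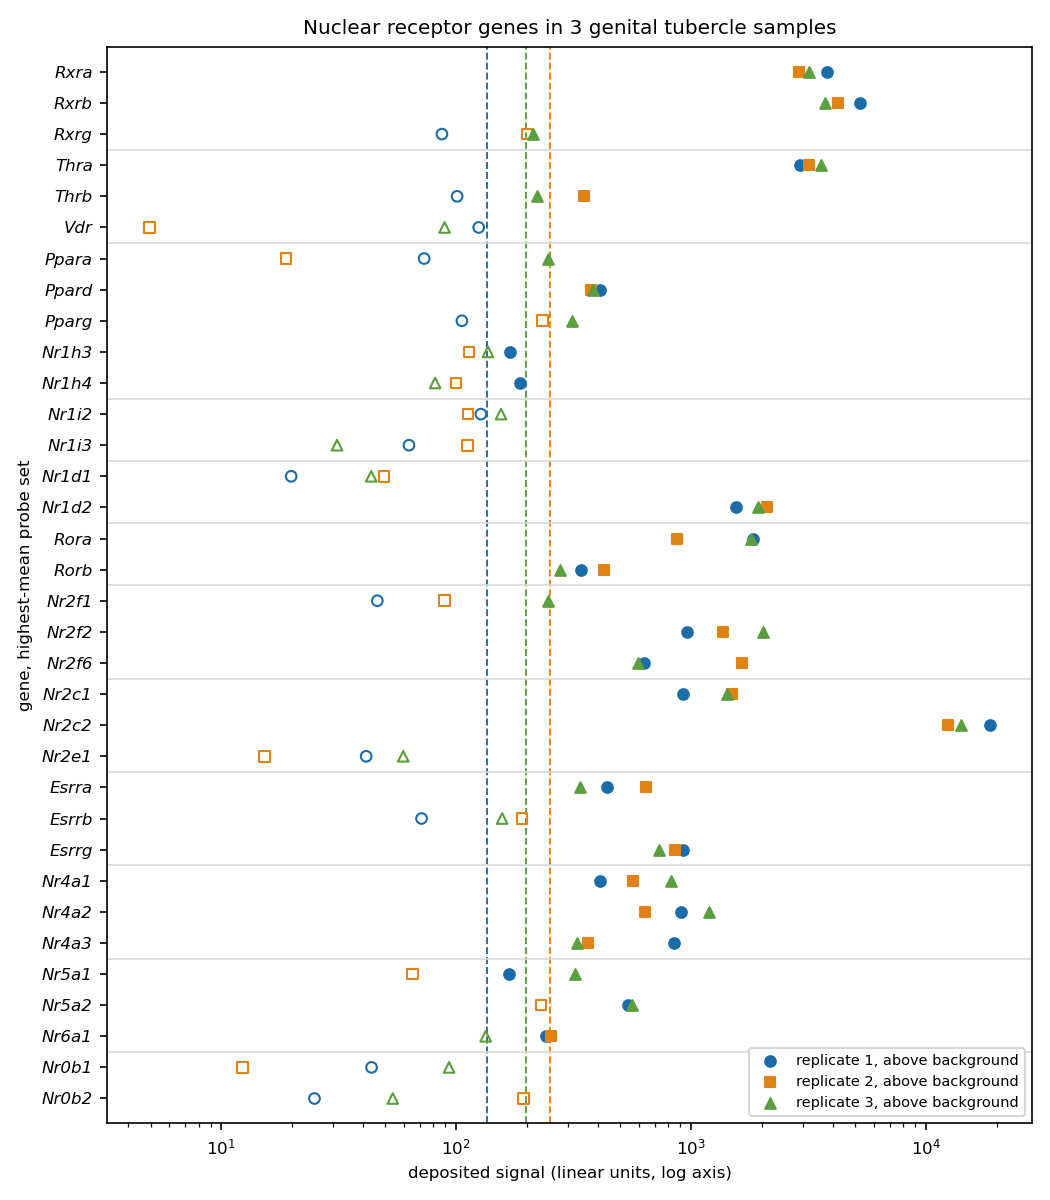
Deposited signal (log axis) of the highest-mean probe set of 34 nuclear receptor genes, grouped by role, in replicates 1, 2 and 3. Dashed vertical lines are each sample's background, filled symbols lie above it and open symbols below it, and 16 genes are filled in all 3 samples.

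The dimer partners came first in role. Rxra, a retinoid X receptor, had signals of 3790.0, 2889 and 3163 in replicates 1, 2 and 3, a mean of 3281 ± 462 (SD, n = 3). Rxrb had signals of 5253, 4213 and 3713 in replicates 1, 2 and 3, a mean of 4393 ± 786 (SD, n = 3). Both were more than 10 times background in every sample, at 28.1, 11.5 and 16.0 times for Rxra and 39.0, 16.8 and 18.8 times for Rxrb in replicates 1, 2 and 3. Rxrg, which is best known from muscle and brain, had 87.0, 200.2 and 212 in replicates 1, 2 and 3 and passed background in replicate 3 alone, by 1.07 times. A further probe set of Rxra read 515, 1658 and 787 and was highest in replicate 2, whereas the main probe set was highest in replicate 1, so those of Rxra disagreed on the order of the samples.

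Of the hormone receptors with well-defined ligands, the thyroid hormone receptor Thra was above background throughout. Its signals were 2904, 3172 and 3558 in replicates 1, 2 and 3, a mean of 3211 ± 328 (SD, n = 3), and 3 of its 3 probe sets were above background in every sample. Thrb, the second thyroid hormone receptor, had 101, 352 and 220.4 in replicates 1, 2 and 3 and lay below background in replicate 1. The vitamin D receptor Vdr, known from skin, gut and bone, was above background in no sample on either of its 2 probe sets, with 125, 4.94 and 89.2 on its main probe set. Genes around these receptors followed no single pattern. Of 8 thyroid hormone genes, 4 passed background in each replicate, namely the transporter Slc16a10 (3980.0, 2074 and 1931), the activating deiodinase Dio2 (1980.2, 3448 and 1472), the target Klf9 (1357, 1867 and 1099.8) and the hormone-binding protein gene Crym (1333, 433 and 363). Of 6 vitamin D metabolism genes, Cyp27a1 (389, 508 and 464) was above background in 3 of 3 samples, while Cyp24a1, a vitamin D target that degrades the hormone, was above it in none (36.3, 58.6 and 96.5).

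Among receptors for fatty acids, sterols and bile acids, Ppard was above background in every sample. Ppard, a broadly expressed peroxisome proliferator-activated receptor, had 408, 373 and 382 in replicates 1, 2 and 3, a mean of 388 ± 17.9 (SD, n = 3). Its other probe set was above background in none, with 14.5, 14.0 and 6.70. Pparg, the regulator of fat cell formation, had 106, 232 and 310.0 in replicates 1, 2 and 3 and passed background in replicate 3 alone. Ppara, which drives fatty acid oxidation in liver, had 73.0, 18.8 and 247 in replicates 1, 2 and 3 and also passed in replicate 3 alone. The other 2 probe sets of Ppara were above background in no sample. Of 5 adipocyte markers, 0 were above background in 3 of 3 samples, and their summed signal was 587, 528 and 603 in replicates 1, 2 and 3. Of the 5, 3 were above background in no sample, among them the leptin (Lep) and adiponectin (Adipoq) genes, which read at most 11.3 and 81.3. The other markers passed in part, Cebpa (260.2, 249 and 313) in replicates 1 and 3 and Fabp4 (254, 213 and 137) in replicate 1.

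The liver X receptor Nr1h3, a sensor of oxysterols, had 169.6, 113 and 137 in replicates 1, 2 and 3 and passed background in replicate 1 alone, by 1.26 times. The bile acid receptor Nr1h4 had 188, 99.9 and 81.3 in replicates 1, 2 and 3 and likewise passed in replicate 1 alone, by 1.39 times. Background itself was lowest in that sample, which also was the highest for 9 of 9 liver markers after alignment, among them Hnf4a, a nuclear receptor of liver outside the members, with 787, 486 and 57.9. The part of liver RNA in the signal of Nr1h4 was not tested. The xenobiotic receptors Nr1i2 and Nr1i3, which control drug metabolism in liver and gut, were above background in no sample, with 127, 112 and 155 and 62.9, 112 and 31.1 on their main probe sets. Of 9 genes of bile acid and xenobiotic metabolism, 0 were above background in 3 of 3 samples, 7 were above it in no sample, and Cyp7a1, the rate-limiting enzyme of bile acid synthesis, read 50.5, 67.5 and 105.

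Genes listed for sterol response and fatty acid use, among them known targets of lipid-sensing receptors, were mostly above background. Of 10 sterol response genes, 10 were above background in 3 of 3 samples, including the desaturase Scd2 (52835, 55047 and 50252), the ubiquitin ligase Mylip (17289, 15746 and 13839), the cholesterol exporter Abca1 (9854, 9684 and 8788) and the transcription factor Srebf1 (5967, 5451 and 3003). Of 12 genes listed for fatty acid oxidation and storage, 11 were above background throughout, all but the fatty acid carrier Fabp4. They included the lipid droplet coat gene Plin2 (11366, 8299.6 and 6872) and the oxidation enzyme Acadm (5315, 4315 and 4494). The list also held Cycs of the respiratory chain (25976, 25417 and 24499) and Idh3a of the citric acid cycle (7867, 6487 and 8750.1), which are not specific to fatty acids. These genes have other regulators as well, and both lists were read beside the 60.6% of all genes without a test.

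The main probe sets of the clock members split at background. Nr1d2, a haem-binding repressor that acts on Arntl (Bmal1) and other clock genes, had 1555, 2105 and 1922 in replicates 1, 2 and 3, a mean of 1861 ± 280.3 (SD, n = 3). Its spread of 0.12 (SD of log2 signal after alignment, n = 3) was the smallest of the 16 receptors above background in every sample. Nr1d1, its close relative, read 19.8, 49.2 and 43.5 on its 1 probe set, at most 0.22 times background. The second probe set of Nr1d2 was above background in no sample (57.2, 83.9 and 59.8), so absence of signal on a probe set does not speak for the gene. In the RefSeq annotation Nr1d1 overlaps the thyroid hormone receptor gene Thra on chromosome 11, and Nr1d2 neighbours Thrb on chromosome 14 with 0 protein-coding genes between them. By main probe set, Thra in the first pair and Nr1d2 in the second were above background in every sample.

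The sequences upstream of Nr1d1 and Nr1d2 are shown as those of the pair of clock repressors among the members, without a claim that the genes differ in level. They are the 250 bases before the RefSeq start of each gene in build GRCm38.p6, at chr11:98775378-98775627 (minus strand) for Nr1d1 and chr14:18239107-18239356 (minus strand) for Nr1d2. Capitals mark AGGTCA, the core hexamer of nuclear receptor binding, on either strand.
Nr1d1: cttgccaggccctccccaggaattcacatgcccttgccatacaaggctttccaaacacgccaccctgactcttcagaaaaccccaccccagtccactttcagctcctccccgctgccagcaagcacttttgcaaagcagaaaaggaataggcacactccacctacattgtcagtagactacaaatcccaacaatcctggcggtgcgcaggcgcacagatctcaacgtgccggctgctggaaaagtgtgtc
Nr1d2: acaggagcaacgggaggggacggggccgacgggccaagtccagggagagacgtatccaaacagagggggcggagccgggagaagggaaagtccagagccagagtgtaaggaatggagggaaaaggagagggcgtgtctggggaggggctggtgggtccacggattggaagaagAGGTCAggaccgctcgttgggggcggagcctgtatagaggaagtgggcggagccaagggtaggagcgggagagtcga
Nr1d2 held 1 such hexamer and Nr1d1 held 0, and 14.0% of 32851 upstream windows of the same length in the table held at least 1. Neither held the letters CACGTG, the E-box bound by clock activators, which 6.02% of all windows held. Over the members, 10 of 49 windows, from 9 of 34 genes in that table, held AGGTCA. The longer AAAGGTCA, the monomer site of the Nr4a receptors, contains it and was in windows of Rxra and Rxrg and in 1.34% of all. A match is a description of the letters and not evidence of binding.

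Rora, the activator that competes with the Nr1d repressors, was above background in every sample on 4 of its 9 probe sets. The main one had 1837, 871 and 1807 in replicates 1, 2 and 3, lowest in replicate 2 by 2.47-fold against the highest. A second read 139, 1422 and 545, lowest in replicate 1 by 8.76-fold, and another read 605, 771 and 554 with a spread of 1.26-fold. Probe sets of Rora thus gave different orders of the same 3 samples, and no direction between samples can be given for this gene. Rorb, a relative known from retina and brain, had 339, 428 and 277 in replicates 1, 2 and 3 on 1 of 3 probe sets, at 1.40 times background or more in each sample. Of 6 brain and retina markers, 0 were above background in any sample. Of 17 circadian clock genes, 13 passed background in each replicate. They included the kinase gene Csnk1d (29060.4, 24103 and 27577), the repressor Cry1 (3556, 3236 and 3555), the activator Clock (3721, 3262 and 2961) and the kinase gene Csnk1e (1164, 6809.6 and 2049). Arntl, the target of both groups of receptors, read 449, 576 and 428.

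The COUP transcription factors repress many genes and pattern mesenchyme, vessels and nervous tissue. Nr2f2, known for mesenchyme and venous endothelium, had 963, 1369 and 2024 in replicates 1, 2 and 3, a mean of 1452 ± 535 (SD, n = 3). Replicate 1 was lowest on 4 of the 4 probe sets of Nr2f2 that passed background in any sample, and replicate 3 highest on 3 of them. Not all of the 4 passed in every sample, so these counts rest partly on samples where a probe set was high. Of its 6 probe sets, 2 were above background in every sample. Replicate 1 was lowest on each, but replicate 3 was highest on the main one and replicate 2 on the other (251, 1064 and 912). Nr2f1 read 46.2, 89.3 and 246 in replicates 1, 2 and 3 and passed background in replicate 3 alone. Nr2f6 had 630.4, 1644 and 596 in replicates 1, 2 and 3, highest in replicate 2 by 2.51-fold over the lowest, while its other probe set read 807, 889 and 512 and was highest in replicate 1 after alignment. Both probe sets of Nr2f6 were lowest in replicate 3. Of 8 endothelial markers, 6 were above background in every sample, with summed signals of 9017, 9414 and 10462 in replicates 1, 2 and 3.

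The testicular receptors Nr2c1 and Nr2c2, orphans first cloned from testis and present in many tissues, were both above background throughout. Nr2c1 had 926, 1487 and 1424 in replicates 1, 2 and 3, a mean of 1279 ± 307 (SD, n = 3), and 3 of its 5 probe sets were above background in every sample. Nr2c2 had 18711, 12344 and 14042 in replicates 1, 2 and 3, a mean of 15032 ± 3297 (SD, n = 3). Its probe sets diverged, since the second read 301, 1589.7 and 989, a further one 37.3, 607 and 205, and the last 11.6, 25.0 and 8.32, above background in no sample. The main probe set was highest in replicate 1, and the other 3 that passed background in any sample were highest in replicate 2. The probe set that read 37.3 in replicate 1 passed in replicates 2 and 3 alone, where it was high. Nr2e1, the tailless orphan of neural progenitors, was above background in no sample, with 41.4, 15.3 and 59.5 on the main of its 2 probe sets.

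Oestrogen-related receptors bind no oestrogen and are known for control of energy metabolism with the coactivators Ppargc1a and Ppargc1b. On its main probe set, Esrra had 438, 643 and 336 in replicates 1, 2 and 3. Esrrg had 924, 853 and 728 in replicates 1, 2 and 3 on its main one, and both were above background in every sample. The other probe set of Esrra read 69.6, 249 and 367 and passed background in replicate 3 alone. It was highest in replicate 3, where the main one was lowest. A further probe set of Esrrg was above background in every sample too (627, 966 and 894), with replicate 3 highest after alignment in place of replicate 1. The last one of Esrrg read 363, 359 and 122 and passed background in replicates 1 and 2 alone. Esrrb, known from pluripotent and trophoblast cells, was above background in no sample on any of its 3 probe sets, with 71.2, 190.3 and 157 on the main one. Ppargc1a was above background in every sample (1518, 892 and 1166) and Ppargc1b in replicates 2 and 3 (46.2, 866 and 364). Among coregulators, 14 of 16 measured genes passed background in each replicate, including the acetyltransferase Crebbp (16239.6, 21965 and 20886), the corepressor subunit Tbl1x (17944, 9678 and 12372), the mediator subunit Med1 (6556, 16341 and 9801) and the corepressor subunit Tbl1xr1 (6352, 6898 and 8823).

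The Nr4a genes, orphan receptors induced within minutes by growth factors and stress, were the 1 role of at least 3 measured genes in which every gene was above background in every sample. Nr4a1 had 411, 567 and 817 in replicates 1, 2 and 3, Nr4a2 had 908, 639 and 1187 in replicates 1, 2 and 3 and Nr4a3 had 846, 363 and 326 in replicates 1, 2 and 3. Their orders of the samples differed. Nr4a1 was highest in replicate 3 and lowest in replicate 1, whereas Nr4a3 was highest in replicate 1, by 2.76-fold over replicate 3. The main probe set of Nr4a2 was highest in replicate 3, but 3 of its 4 that passed background were highest in replicate 2, among them 260.1, 975 and 328. Of Nr4a3, 1 of 3 probe sets was above background in any sample. Of 8 immediate early genes induced in the same way, 5 were above background in 3 of 3 samples, with Ier2 at 7087, 6124 and 3716, Egr1 at 3304, 2659 and 2658, Jun at 2326, 2538 and 2086 and Dusp1 at 2295, 1667 and 1622. The 8 genes summed to 17259, 14749.5 and 11992 in replicates 1, 2 and 3, highest in replicate 1, where Nr4a3 was highest and Nr4a1 lowest.

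The 250 bases upstream of the 3 Nr4a genes are shown because every Nr4a gene was above background. Coordinates in GRCm38.p6 are chr15:101266596-101266845 (plus strand) for Nr4a1, chr2:57124004-57124253 (minus strand) for Nr4a2 and chr4:48045055-48045304 (plus strand) for Nr4a3. Capitals mark CGTCA and its complement TGACG, the core of the cAMP response element.
Nr4a1: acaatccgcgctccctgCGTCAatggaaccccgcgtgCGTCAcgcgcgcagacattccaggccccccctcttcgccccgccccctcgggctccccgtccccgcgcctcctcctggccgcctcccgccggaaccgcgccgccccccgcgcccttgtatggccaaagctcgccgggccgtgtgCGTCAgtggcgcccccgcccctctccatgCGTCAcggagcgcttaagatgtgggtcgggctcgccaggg
Nr4a2: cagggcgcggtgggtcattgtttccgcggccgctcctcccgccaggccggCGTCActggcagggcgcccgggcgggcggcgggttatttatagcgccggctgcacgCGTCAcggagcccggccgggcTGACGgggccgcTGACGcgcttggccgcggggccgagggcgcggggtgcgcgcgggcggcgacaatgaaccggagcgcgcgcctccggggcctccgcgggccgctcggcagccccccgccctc
Nr4a3: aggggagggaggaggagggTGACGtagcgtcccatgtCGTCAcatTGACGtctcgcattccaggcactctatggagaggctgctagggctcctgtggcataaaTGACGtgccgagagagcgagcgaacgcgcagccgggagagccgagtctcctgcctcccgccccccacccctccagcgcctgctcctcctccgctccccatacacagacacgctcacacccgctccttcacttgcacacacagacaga
Each window held 4 copies. Of all 32851 windows, 17.8% held at least 1 copy, 3.90% at least 2 and 0.137% at least 4. Among the 49 member windows, 11 held at least 1 copy, and the windows with 4 were those of Nr4a1, Nr4a2 and Nr4a3. None of the 3 held the full palindrome TGACGTCA, which contains CGTCA on both strands and was in 1.55% of all windows. The letters were chosen for search after these sequences had been read.

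Receptors of gonad, adrenal and germ line, and those without a DNA-binding domain, completed the members. Nr5a1, the regulator of steroid-producing cells, had 168, 65.3 and 320.3 in replicates 1, 2 and 3. It lay below background in replicate 2, and in every sample on its other probe set. Nr5a2, known from liver, gut and ovary, had 541, 229.9 and 559.9 in replicates 1, 2 and 3 and was likewise above background in replicates 1 and 3, on 1 of 4 probe sets. Nr6a1, an orphan of germ cells and early embryos, had 242, 254 and 133 in replicates 1, 2 and 3. On this probe set it passed background in replicates 1 and 2, in replicate 2 by 1.01 times. The other 4 probe sets of Nr6a1 were above background in no sample. Nr0b1 and Nr0b2, which lack the DNA-binding domain and act by repressing other receptors, were above background in no sample, with 43.6, 12.3 and 93.3 and 24.9, 193 and 53.7. Of 9 gonad and adrenal markers, 1 was above background in 3 of 3 samples, the cholesterol transporter Star (306, 450.2 and 289), and the steroidogenic enzyme Cyp11a1 was in none (76.2, 136 and 160.2). Over the 8 receptors above background in no sample, the main probe set of each read between 4.94 and 193.2.

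**Figure D2:**
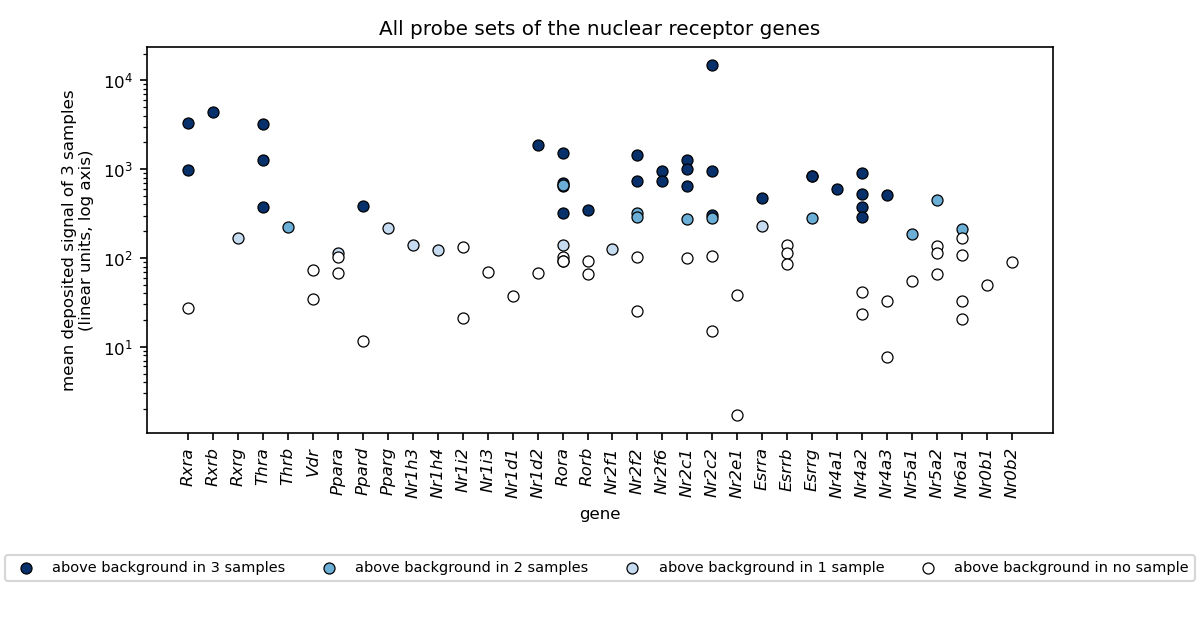
Mean deposited signal over 3 samples (log axis) of all 90 probe sets, by gene. Shading gives the number of samples in which a probe set was above background, and in 12 of the 22 genes with several probe sets some but not all are darkest.

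Probe sets of 1 gene often disagreed. Of 22 members with several probe sets, 2 (Thra and Nr2f6) had each of them above background in every sample, against 30.7% of all such genes. In 12 some but not all were, against 48.2%, and in 8 none was, against 21.0%. In replicates 1 and 2, without replicate 3, the counts were 3 (with Esrrg added), 12 and 7, against 32.7%, 47.9% and 19.4%. With any probe set of a gene allowed, the count stayed at 16 receptor genes, against 60.7% of all genes. The order of the samples also depended on the probe set chosen. Among the 16 main probe sets above background in every sample, replicate 1 was highest in 7, replicate 2 in 3 and replicate 3 in 6 after alignment, against 55.6%, 19.1% and 25.3% of all genes. Among the 16 further member probe sets above background in every sample, replicate 1 was highest in 2, replicate 2 in 10 and replicate 3 in 4. The shares over all further probe sets were 32.5%, 37.8% and 29.6%.

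Spread between samples was near that of other genes. The median SD of log2 signal was 0.36 over the 16 receptors above background in 3 of 3 samples and 0.33 over 11020 such genes, and 8 of 16 lay below the median of all. By main probe set, Nr1d2 (0.12), Thra (0.15) and Ppard (0.18) varied least. A further probe set of Thra, also above background in every sample (213, 584 and 319), had 0.62. It was highest in replicate 2, whereas the main one was highest in replicate 3. Nr4a3 (0.84), Rora (0.72) and Nr2f6 (0.72) varied most, in each case through 1 sample that stood apart, namely replicate 1, replicate 2 and replicate 2. Without replicate 1 the median SD of the 16 was 0.22. Without replicate 3, the library whose Xist signal goes against its male label, it was 0.29, and without replicate 2 it was 0.29 too. An SD over 2 arrays is not comparable with the 0.36 over 3, so these values do not show that any 1 sample adds spread.

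**Figure D3:**
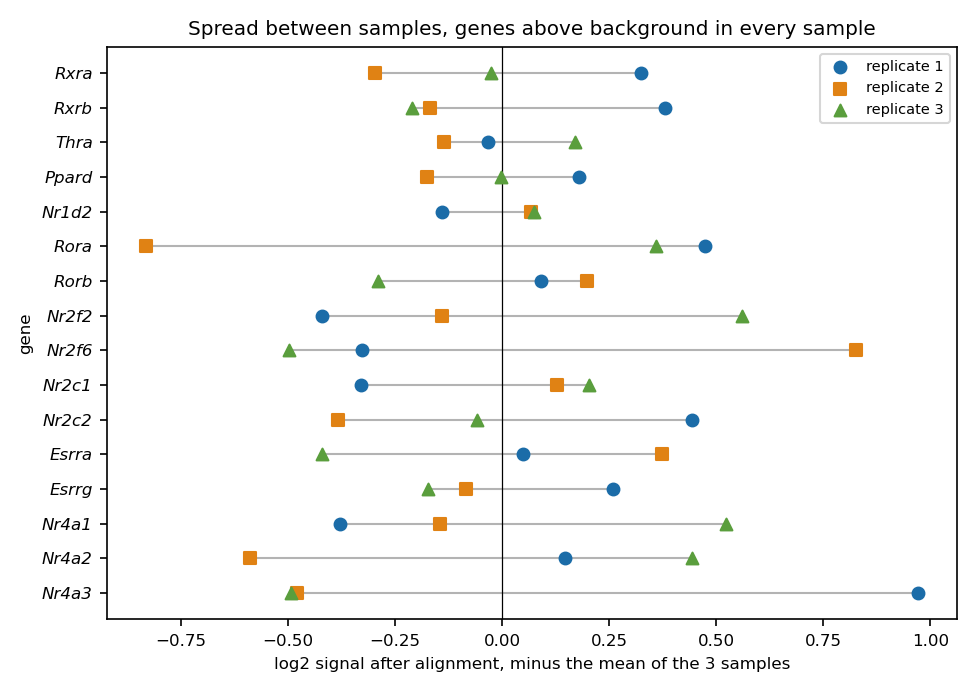
Log2 signal after alignment minus the mean of the 3 samples, for the 16 nuclear receptor genes above background in every sample. Points are replicates and lines join the lowest to the highest, with the widest gaps in Nr4a3, Rora and Nr2f6 and the narrowest in Nr1d2.

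From 1 to 3 receptors differed over 2-fold between a pair of samples. Between replicates 3 and 1 it was 1 of 18 receptors above background in both, against 7.72% of all genes. That receptor was Nr4a3, lower in replicate 3, against 4.68% of all genes, while 0 receptors were higher, against 3.03%, and without alignment the count was 2 in place of 1. Between replicates 3 and 2 it was 3 of 17, against 7.39%. Rora and Nr4a2 were higher in replicate 3, against 4.59% of all genes, and Nr2f6 was lower, against 2.8%. Between replicates 2 and 1 it was 3 of 17, against 12.6%, but 6 where all probe sets set the median for alignment. Nr2f6 was higher in replicate 2, against 3.79% of all genes, and Rora and Nr4a3 were lower, against 8.78%. A pair of single arrays has no replicate, so these counts carry no test, and for Rora, Nr4a2 and Nr2f6 other probe sets gave other orders.

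The landmark contrast set replicate 3, with visible fingers, against replicates 1 and 2 with limma over the 29121 probe sets that passed background somewhere. It called 0 of 50 member probe sets at a Benjamini-Hochberg adjusted p under 0.05, and 0 (0%) of all probe sets. With 1 sample in an arm it also made no call among changed probe sets in simulated data, so this 0 does not bear on whether receptors differed. At an unadjusted p under 0.05 it held 1 member probe set, against 2.1% of all. That was Nr2f1, with 246 in replicate 3, against 46.2 and 89.3 in replicates 1 and 2, and a limma adjusted p of 1.00. Nr2f1, like Ppara, Pparg and Rxrg, entered the fit through replicate 3 alone, the sample where it was high, so no fold is given for these genes. Where 3 samples above background were required, 0 of 32 member probe sets had an unadjusted p under 0.05, against 1.08% of all.

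Among the 16 receptors above background throughout, Nr2f2 and Nr4a1 had the largest positive differences. Nr2f2 read 2024 in replicate 3, against 963 and 1369 in replicates 1 and 2, a log2 difference of 0.84 ± 0.61 (SE). Nr4a1 read 817, against 411 and 567, a difference of 0.78 ± 0.61. By main probe set, Nr2f6 and Nr4a3 had the largest negative differences, -0.75 ± 0.78 and -0.74 ± 0.87. Each of these rested on 1 of the samples with indented footplates. Without replicate 2 the difference of Nr2f6 was -0.17 on that probe set, and without replicate 1 that of Nr4a3 was -0.02. The other probe set of Nr2f6 had a difference of -0.70, with 512 in replicate 3, against 807 and 889 in replicates 1 and 2. Of the 50 member probe sets 29 were higher in replicate 3, against 53.6% of all, though some entered through replicate 3 alone and others without it. Of the 32 above background in every sample, 16 were higher, against 52.8% of all such probe sets. With 1 residual degree of freedom, the fit takes the spread of the single sample to be that of the other pair. Landmark, sex and any other feature of replicate 3, labelled male but high in Xist, cannot be told apart here.

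**Figure D4:**
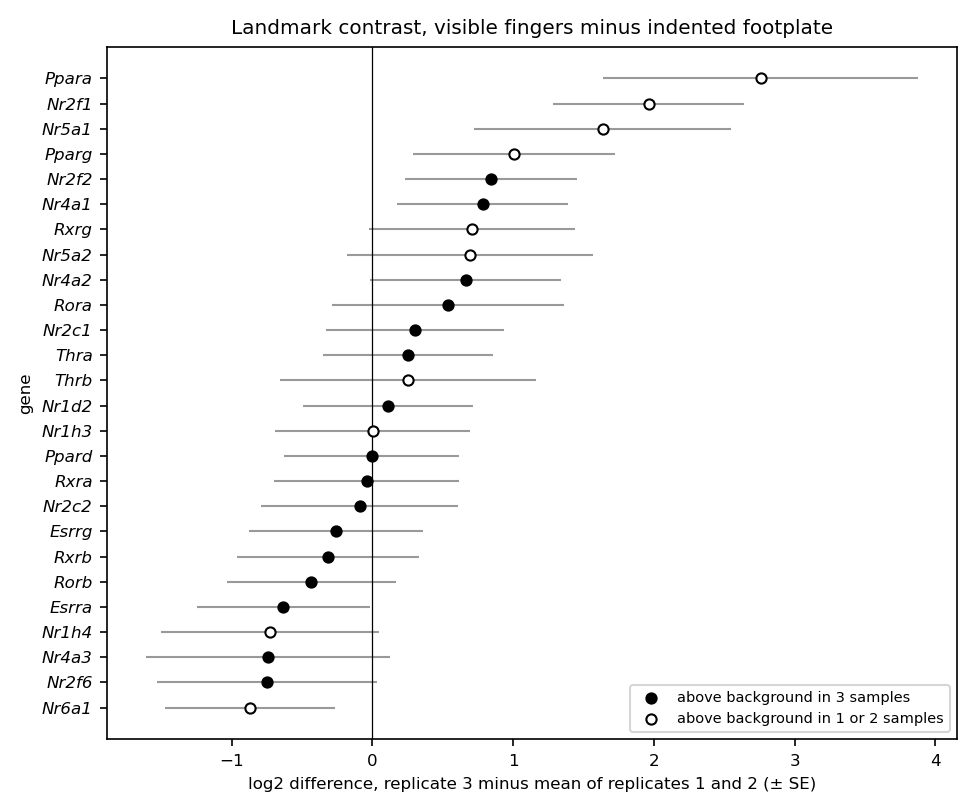
Log2 difference ± SE from limma, replicate 3 minus the mean of replicates 1 and 2, for the 26 receptor genes above background in at least 1 sample. Filled points were above background in every sample and open points in 1 or 2 samples. Nr2f1, Ppara, Pparg and Rxrg passed background in replicate 3 alone, where they were high, so their differences are no evidence of a change. The same limit holds for Nr1h3 and Nr1h4, which passed in replicate 1 alone, and for Nr6a1, which passed in replicates 1 and 2 alone.

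Related receptors and lists give the setting. Retinoic acid and steroid receptor genes passed background in every sample in 6 of 8 cases, among them Esr1 (3833, 2487 and 2635), Rarb (1496, 1591 and 3948), Nr3c1 (1103, 2343 and 1502) and Pgr (1464, 1555 and 1586). Markers of further cell types were above background in 3 of 3 samples for 8 of 8 epithelial, 6 of 9 skeletal muscle, 5 of 7 erythroid, 5 of 8 macrophage, 4 of 6 nerve and glia and 4 of 9 liver genes. Without replicate 3 the counts were 6 for liver, 6 for erythroid genes and 15 for coregulators. Of 4 sex-linked genes 3 passed without replicate 3, in place of 0, and the counts of the other lists were as before. Each is a count read beside 60.6% of all genes (62.3% without replicate 3), with no test.

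**Figure D5:**
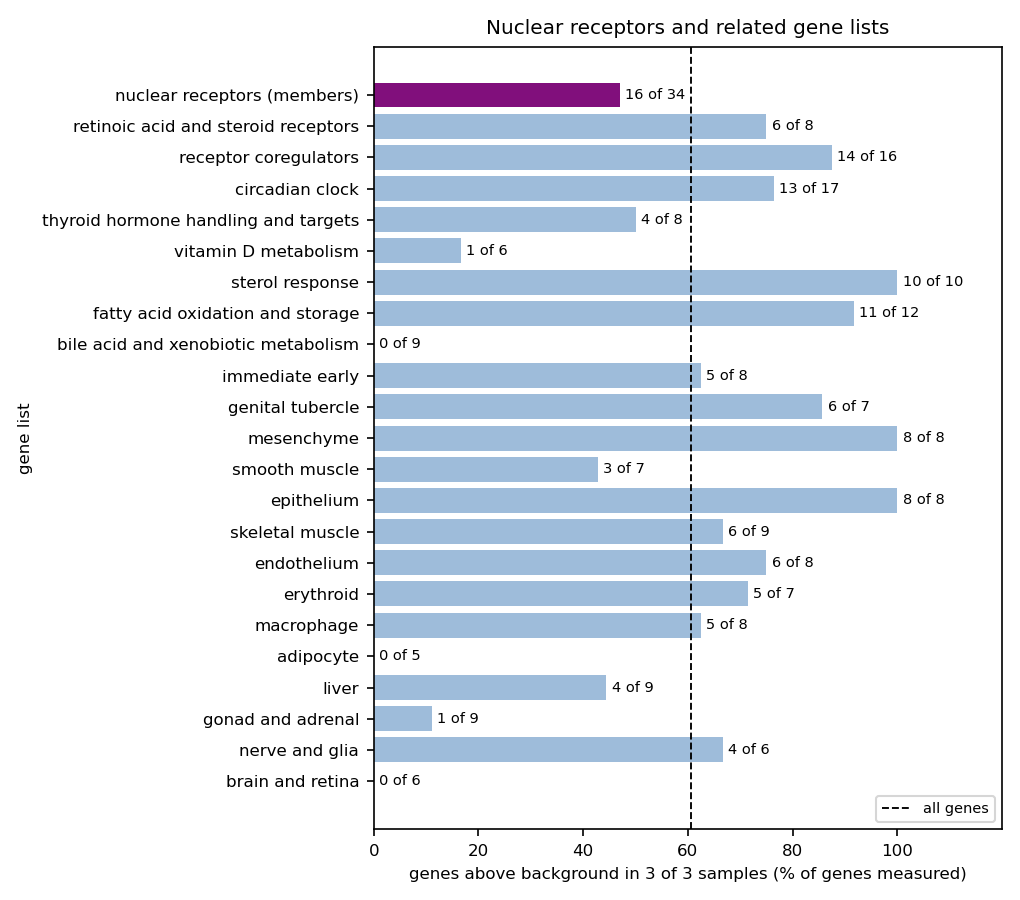
Percentage of genes that passed background in each of the 3 samples, for the nuclear receptor members (16 of 34) and for each related gene list except the sex-linked genes. The dashed line is the share of all genes, 60.6%.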

How the data were processed

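Values were deposited as linear intensity by probe set, made by the authors with GCOS per the submitters' processing notes. The algorithm, its version and any genome build were not given in the sources used here. A mean trimmed by 2% at either end came to 1500.01 in each array, the mark of a global scaling before deposit. Of 45101 probe sets, 64 controls were left out. A platform annotation paired 34945 with 1 symbol, 932 with several and 9160 with none. Of those with 1 symbol, 34741 matched RefSeq (GRCm38.p6) by Entrez identifier, with 0 symbols changed. The members, gene lists and rules were chosen with earlier results of these data known.

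Intensities below 1 were set to 1 and log2 transformed. Medians of probe sets above background in every sample differed by 0.23 on the log2 scale, over the limit of 0.1, so samples were aligned on them. Signals are printed as deposited, whereas folds, differences and log2 SDs follow alignment. The landmark contrast used limma 3.58.1 in R 4.3.3 (lmFit, eBayes, two-sided, Benjamini-Hochberg over all probe sets tested) and was tested on simulated data, where it called none of the changed probe sets after adjustment. Other steps used Python 3.11.15 with pandas 2.3.3. Probe set agreement without replicate 3 was added after seeing the data. Every member is given. Of each list up to 4 genes with the highest mean signal among those above background throughout are named, besides genes the text turns on. Of the contrast the members with unadjusted p under 0.05 and the main probe sets with the 4 largest differences among receptors above background throughout are named. At most 10 probe sets held identical values in any pair of samples, so each counts as its own library. Nothing in the labels says whether the embryos shared a litter, and the number of arrays limits the precision. Upstream sequences are from RefSeq, GRCm38.p6.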

Additional observations from a re-analysis of the deposited data

How the results depend on the processing

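With the background at the 90th or 99th percentile, without each replicate, with any probe set of a gene, without probe sets of the shared-sequence suffixes or with 2 of 3 samples required, the count of 16 receptor genes lay between 16 and 20. That of 32 member probe sets lay between 29 and 37. The count of list genes, with 4 sex-linked genes among those measured, lay between 115 and 129 around 120. The median SD of 0.36 over 3 arrays was between 0.22 (without replicate 1) and 0.29 over 2 arrays when each replicate was left out, which is no like comparison. It was 0.62 over all 34 genes with no filter on low signal. Receptors over 2-fold apart were 2 in place of 1 between replicates 3 and 1 with no alignment, and 6 in place of 3 between replicates 2 and 1 where all probe sets set the median for alignment. That the landmark contrast called no member probe set under any alternative is no sign of stability, since 1 arm holds 1 sample. In simulated data, made for the main setting alone, it called none of the changed probe sets. Nr2f1 passed background in replicate 3 alone, where it was high. An Esrrg probe set, lower in replicate 3, passed in replicates 1 and 2 alone. For both, the filter and the contrast used the same values, so the contrast gives them no support. Over all probe sets it called 1 of 21659 where 3 samples above background were required, in place of 0. The filters, a floor of 16 and a variance trend could not change the log2 differences of Nr2f2, Nr4a1, Nr2f6 and Nr4a3. These kept their sign with no alignment, with quantile normalization and without replicate 1 or 2, though that of Nr4a3 was -0.02 without replicate 1. Leaving out replicate 1 or 2 could not reverse a sign, since replicate 3 was the highest or lowest sample for each gene. Skipping alignment shifts every difference by the same small amount, for Nr2f2 from 0.84 to 0.82. The kept signs are thus no sign of stability. No paired analysis was possible because the samples form 1 group. With 3 arrays and 1 residual degree of freedom, a difference that misses the threshold does not show that the samples are alike.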
